A study of Mus musculus with 8 samples.

Results

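The 10 genes examined here, Ucp1, Dio2, Cidea, Ppargc1a, Prdm16, Cox7a1, Cox8b, Elovl3, Adrb3 and Cpt1b, mark brown and beige adipocytes, the heat-producing cells of fat. They were taken by gene symbol from a table of RNA-Seq counts for whole mouse mammary glands, and all 10 were found among its 51789 genes. Each gland came from a female C57BL/6 mouse whose abdominal mammary gland had received small extracellular vesicles (sEVs), membrane particles that cells release into their medium, and RNA was taken 6 weeks after the injection. The sEVs were shed by AT3 cells, a mouse mammary adenocarcinoma line that metastasizes, grown at normal oxygen (sEV-NORM, 3 glands) or in hypoxia (sEV-HYP, 2 glands), while sEV-CTRL (3 glands) was the same preparation made from medium that had held no cells. All 8 mice shared the strain, sex, site and schedule, their age is not given in the sources used here, and all tumor sEVs came from 1 cell line. The question asked of these genes was whether tumor sEVs shift the fat of the gland toward a thermogenic program, and the comparisons are sEV-HYP against sEV-CTRL, sEV-HYP against sEV-NORM and sEV-NORM against sEV-CTRL.

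Brown and beige adipocytes burn fatty acids in mitochondria and let the energy go as heat, because uncoupling protein-1 (Ucp1) carries protons back across the inner mitochondrial membrane without making ATP. Noradrenaline starts the program through the beta-3 adrenergic receptor (Adrb3), which raises cAMP, and the signal reaches Ucp1, Dio2 and Ppargc1a through protein kinase A and its transcription factors. Beige adipocytes can appear within white fat depots such as the one that surrounds the mammary ducts.

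Counts per library totaled 18194996 to 24622569, and values are given as raw counts or as CPM, the usual library-scaled count, after TMM normalization. Markers of white adipocytes (12 genes) and luminal epithelium (10 genes) were all above 0 in each of the 8 libraries, which are cell types of the labelled tissue. Skeletal muscle RNA was uneven. The summed level of 20 skeletal muscle genes was 918 to 13080 CPM with sEV-CTRL, 61.8 to 4238 CPM with sEV-NORM and 6690 to 18060 CPM with sEV-HYP, so that both sEV-HYP glands exceeded all 3 sEV-NORM glands. By this sum replicate 2 of sEV-NORM had the least muscle RNA, with Myh2 and Tcap at 0, and replicate 2 of sEV-HYP had the most (Myh7 was at 0 in sEV-CTRL replicate 3). By the mean of log2 CPM over these genes, used for the correlations below, replicate 2 of sEV-CTRL was highest. It stood at 8.28, against 7.51 in replicate 2 of sEV-HYP. Replicate 2 of sEV-HYP was also the highest of the 8 libraries for 7 of the 10 thermogenic genes. Most edgeR results that rest on it are given with and without it, but those of the model with muscle RNA as a covariate are not. Results of the wider pathway were recomputed without it after the data had been seen.

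Ucp1 and Dio2 were the thermogenic genes that separated sEV-HYP from sEV-CTRL. Elovl3 did not pass the filter on low counts, and 9 genes were tested. Of these 9, Ucp1 and Dio2 had an unadjusted P under 0.05 by edgeR's quasi-likelihood test, both higher with sEV-HYP. That cutoff is the one used in the study. Ucp1 passed the filter only through replicate 2 of sEV-NORM and replicate 2 of sEV-HYP, the glands where it was high. Its call and its separation are therefore not independent of the filter. The background was 2.45% of 17858 genes tested. These 2 were also the genes whose sEV-HYP libraries all lay above the sEV-CTRL libraries, a pattern held by 6.7% of all genes tested, and none of the 9 lay wholly below, against a background of 6.08%. After Benjamini-Hochberg adjustment over all genes tested 0 of the 9 genes passed by edgeR, all at an adjusted P of 1.00, with a background of 0%, whereas DESeq2 on the groups compared passed Dio2, with a background of 0.0543% of 25790 genes. By the unadjusted cutoff DESeq2 passed Ucp1, Dio2 and Cox7a1, with a background of 1.5% of the same genes. The median log2 fold change was 0.37 over the 9 genes and -0.02 over all genes tested, with 7 of the 9 above 0.

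Against sEV-NORM, Cox7a1 was the 1 gene of 9 with an unadjusted P under 0.05 by edgeR, where the background was 3.95%. Cidea, Cox7a1 and Cox8b were higher in both sEV-HYP libraries than in any sEV-NORM library, 3 of 9 genes beside a background of 12.3%, and 0 of 9 were lower in both, beside 10.5%. None passed after adjustment by edgeR (background 0%) or DESeq2 (background 0.5%), which by the unadjusted cutoff passed Cox7a1 and Cox8b (background 4.54%). All 9 fitted log2 fold changes were above 0, with a median of 0.67 against -0.02 over all genes tested, but without replicate 2 of sEV-HYP those of Ucp1 and Adrb3 turned to -1.31 and -0.23.

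Between sEV-NORM and sEV-CTRL, 0 of 9 genes had an unadjusted P under 0.05 by edgeR (background 1.63%), whereas DESeq2 put Ucp1 (3.57 on the log2 scale) and Dio2 (1.18) past that cutoff, with a background of 1.14%. None passed after adjustment by edgeR (background 0%) or DESeq2 (background 0.0113%). The libraries overlapped for all 9, where 2.69% of all genes tested were higher and 2.17% lower without overlap. The median log2 fold change was -0.27, with 2 genes above 0 and 7 below. Since the comparisons share libraries, they are not independent of each other.

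**Figure D1:**
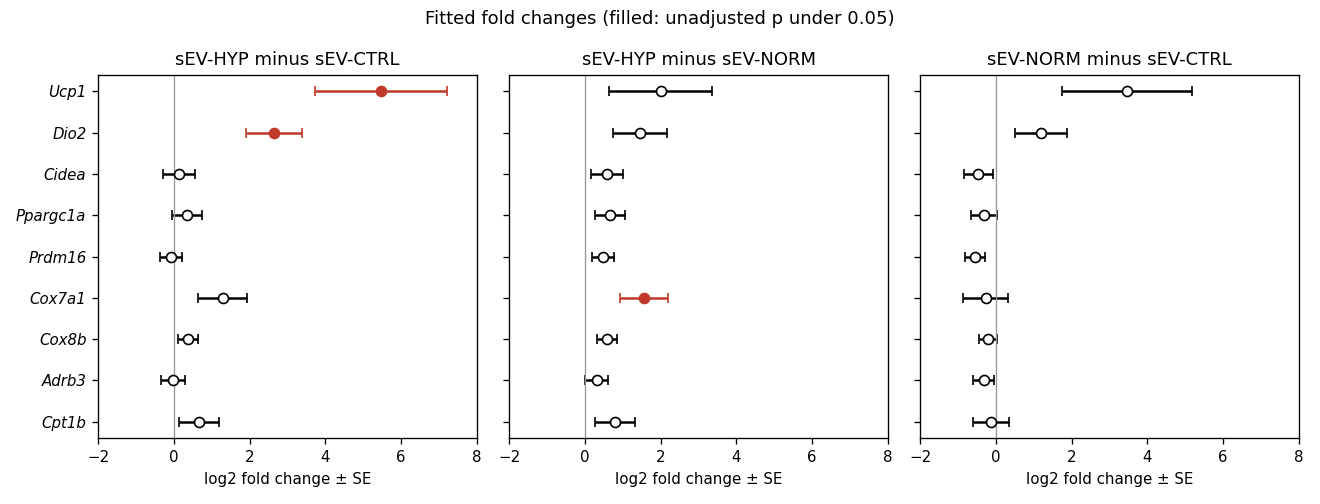
Fitted log2 fold changes (x axis) with their SE for the 9 thermogenic genes tested (rows) in each of the 3 comparisons, edgeR; filled points had an unadjusted P under 0.05. Ucp1 at 5.47 and Dio2 at 2.64 stand apart against sEV-CTRL, and Cox7a1 at 1.56 is the filled point against sEV-NORM.

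Ucp1 (ENSMUSG00000031710, GRCm38 chromosome 8, 83290352 to 83298452, plus strand), the uncoupling protein itself, was close to undetected in control glands. Its counts were 4, 0 and 0 in the sEV-CTRL libraries, 1, 46 and 7 in the sEV-NORM libraries, and 7 and 115 in the sEV-HYP libraries. The rise therefore rested on 2 glands, replicate 2 of sEV-HYP and replicate 2 of sEV-NORM, while replicate 1 of sEV-HYP, at 7 counts, matched replicate 3 of sEV-NORM and lay 3 counts above the highest control. A count of 0 allows up to 3 counts, or 0.137 and 0.164 CPM in the sEV-CTRL libraries concerned, by counting error alone.

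In control glands the mean level of Ucp1 was 0.0677 ± 0.117 CPM (SD, n = 3), in sEV-NORM glands 0.803 ± 1.08 CPM (SD, n = 3), and in sEV-HYP glands 3.24 ± 4.12 CPM (SD, n = 2). The difference of sEV-HYP from sEV-CTRL was 5.47 on the log2 scale (SE 1.75, edgeR), past the unadjusted cutoff, and without replicate 2 of sEV-HYP it was 2.16 (SE 2.03), which did not pass. Without replicate 1 of sEV-CTRL, the only control with Ucp1 counts, it was 9.12 (SE 3.00), but the controls left are then at 0, so that this value depends on the prior count and is no bound. The difference of sEV-HYP from sEV-NORM was 2.00 (SE 1.37), which did not pass, and it turned to -1.31 without that library. Without replicate 2 of sEV-NORM, the same difference was 4.12 and passed. The sEV-NORM and sEV-CTRL glands differed by 3.47 (SE 1.72), short of the cutoff. In whole tissue, fewer cells of a type and less RNA per cell cannot be told apart.

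Dio2 (ENSMUSG00000007682, chromosome 12, 90724552 to 90738438, minus strand) encodes type 2 deiodinase, which makes active thyroid hormone inside brown adipocytes. Its counts were 34, 36 and 25 with sEV-CTRL, 23, 146 and 73 with sEV-NORM, and 85 and 298 with sEV-HYP. Both sEV-HYP libraries were above all controls, as were 2 of the 3 sEV-NORM libraries, and replicate 2 was again the highest of its group in sEV-NORM and sEV-HYP. At 2.74 against 0.159 CPM per kb of exon, the highest library was 17.2 times the lowest.

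In control glands the mean level of Dio2 was 1.58 ± 0.187 CPM (SD, n = 3), in sEV-NORM glands 3.61 ± 2.77 CPM (SD, n = 3), and in sEV-HYP glands 9.92 ± 8.52 CPM (SD, n = 2). The difference between sEV-HYP and sEV-CTRL was 2.64 on the log2 scale (SE 0.75, adjusted P = 1.00 by edgeR, adjusted P = 0.017 by DESeq2 on the libraries of these groups), past the unadjusted cutoff. Without replicate 2 of sEV-HYP it was 1.30 (SE 0.79), so the difference of the remaining library from the controls did not pass. Against sEV-NORM the log2 fold change was 1.46 (SE 0.72), and between sEV-NORM and sEV-CTRL it was 1.19 (SE 0.69), both short of the cutoff. The former was 2.18 without replicate 2 of sEV-NORM and 2.14 without replicate 1 of sEV-HYP, both past it, and 0.11 without replicate 2 of sEV-HYP. The 100 exonic bases that Dio2 shares with the opposite-strand gene Gm26512 can add little, since that gene had at most 6 counts in any library.

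Ucp1 and Dio2 followed each other across glands. Over the 8 libraries the correlation of their log2 CPM was r = 0.953 (Spearman's rho = 0.898), and it was 0.803 without replicate 2 of sEV-NORM and of sEV-HYP. Dio2 ranked 2nd of all genes tested by likeness to Ucp1. The 5 genes outside the gene lists with the highest r were Cdyl2 at 0.953, Mapk6 at 0.917, Pcbp2 at 0.898, Mark3 at 0.895 and Tmem69 at 0.89. The other 7 thermogenic genes tested were far lower in this order, from r = 0.382 for Cox8b to r = -0.175 for Prdm16. These correlations describe 8 libraries that share 3 treatments, with 2 of them carrying most of the Ucp1 counts.

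Because Ucp1 and Dio2 moved together and both are known targets of cAMP signaling, the 250 bases before their transcription starts are shown here (RefSeq, GRCm38.p6, 5′ to 3′, with matches to the motifs searched in capitals). The Ucp1 sequence is chr8:83290098-83290347 on the plus strand, and the Dio2 sequence is chr12:90739039-90739288 on the minus strand. The RefSeq start used for Dio2 lies upstream of the GENCODE gene start given above, and positions below count from the RefSeq start.
Ucp1: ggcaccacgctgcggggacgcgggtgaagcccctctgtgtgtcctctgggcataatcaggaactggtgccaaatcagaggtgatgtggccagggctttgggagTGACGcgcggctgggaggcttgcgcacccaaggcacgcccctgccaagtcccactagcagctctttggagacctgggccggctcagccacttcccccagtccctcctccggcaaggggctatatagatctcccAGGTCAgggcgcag
Dio2: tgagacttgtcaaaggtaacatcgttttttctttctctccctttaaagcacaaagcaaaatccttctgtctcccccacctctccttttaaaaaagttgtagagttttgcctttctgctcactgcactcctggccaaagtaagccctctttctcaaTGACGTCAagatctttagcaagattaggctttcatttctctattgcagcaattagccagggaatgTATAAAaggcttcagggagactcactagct
The motifs searched on both strands were the full cAMP response element TGACGTCA, its shorter form TGACG, the nuclear receptor motif AGGTCA and the TATA box TATAAA, where each full element also counts as the shorter form. The full element was present in Dio2, at bases -95 to -88 counted back from the start, and 1.55% of 32851 mouse promoter windows hold it. Ucp1 held the shorter form at -147 to -143, a match found in 17.8% of windows, and the nuclear receptor motif at -14 to -9, found in 14.0%. Dio2 also held TATAAA at -30 to -25, found in 12.4%. Of the other 4 thermogenic genes with an entry, Ppargc1a held the shorter form on the other strand (CGTCA at -49 to -45), and no match was found in Prdm16, Cox7a1 or Cox8b. A match describes letters only and shows no binding.

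**Figure D2:**
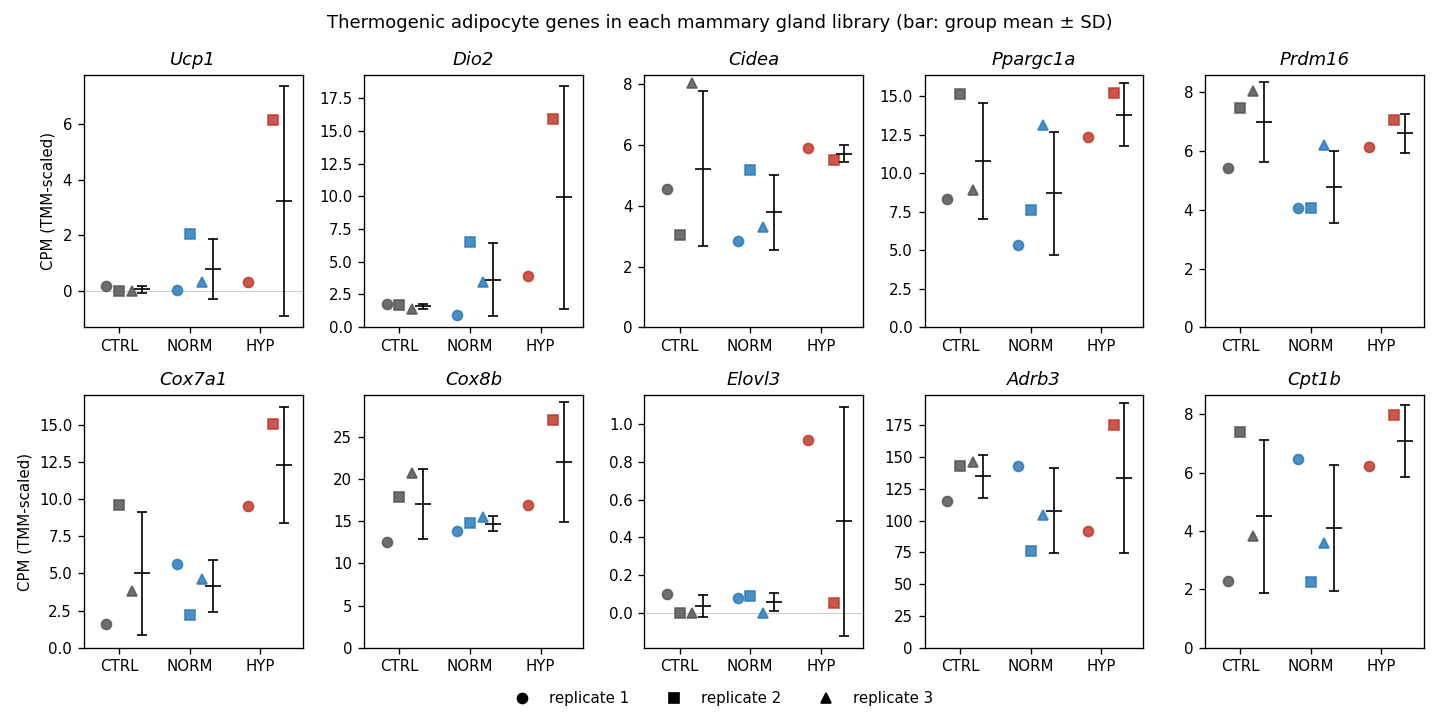
CPM (y axis, linear, scaled separately for each gene) of the 10 thermogenic genes in every library by group, with the group mean and SD beside the points and symbols for the replicate number. Ucp1 and Dio2 are high in replicate 2 of sEV-NORM and sEV-HYP, Elovl3 only in replicate 1 of sEV-HYP, and the groups overlap for Ppargc1a, Prdm16 and Adrb3.

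Per length, the thermogenic genes spanned a wide range. Mean levels over the 8 libraries were 48.4 CPM per kb of exon for Cox8b, 36.9 for Adrb3, 12.2 for Cox7a1, 4.31 for Cidea, 1.63 for Ppargc1a, 1.48 for Cpt1b, 0.761 for Dio2, 0.694 for Ucp1, 0.65 for Prdm16 and 0.0785 for Elovl3. Neighbors in this order overlapped across libraries except Cidea, whose lowest library was at 2.56, and Ppargc1a, whose highest was at 2.31. The order within 1 gland could differ, since Ucp1 ran from 0 to 3.76 CPM per kb.

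The transcriptional regulators of the program showed no separation of sEV-HYP from controls. Ppargc1a (ENSMUSG00000029167, chromosome 5, 51454250 to 51567726, minus strand) encodes PGC-1 alpha, the coactivator that drives mitochondrial biogenesis, and its level was 8.32, 15.1 and 8.91 CPM with sEV-CTRL, 5.35, 7.62 and 13.1 CPM with sEV-NORM, and 12.4 and 15.2 CPM with sEV-HYP. The 2 sEV-HYP glands lay within or just above the range of the other groups, and no comparison passed. Its log2 fold change was 0.35 (SE 0.39, edgeR) against sEV-CTRL, 0.67 (SE 0.39) against sEV-NORM and -0.31 (SE 0.36) for sEV-NORM against sEV-CTRL.

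Prdm16 (ENSMUSG00000039410, chromosome 4, 154316125 to 154636873, minus strand), a zinc finger protein that sets brown and beige identity, varied least of the 10 genes, 1.98 times between its highest and lowest library. Its level was 5.43, 7.47 and 8.04 CPM with sEV-CTRL, 4.06, 4.08 and 6.19 CPM with sEV-NORM, and 6.13 and 7.06 CPM with sEV-HYP. Both sEV-HYP libraries fell inside the control range, the lowest values were 2 sEV-NORM libraries, and no comparison passed. The log2 fold change was -0.08 (SE 0.29, edgeR) for sEV-HYP against sEV-CTRL, 0.47 (SE 0.29) against sEV-NORM and -0.55 (SE 0.26) for sEV-NORM against sEV-CTRL.

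The genes for a lipid droplet protein and a fatty acid elongase were highest in other glands than Ucp1. Cidea (ENSMUSG00000024526, chromosome 18, 67343604 to 67367785, plus strand), a lipid droplet protein abundant in brown fat, was at 4.57, 3.05 and 8.04 CPM with sEV-CTRL, 2.85, 5.18 and 3.31 CPM with sEV-NORM, and 5.91 and 5.51 CPM with sEV-HYP. The highest Cidea level was thus in a control gland. Cidea was higher in both sEV-HYP glands than in any sEV-NORM gland, but the log2 fold change of 0.59 (SE 0.42, edgeR) did not pass the test, and against sEV-CTRL it was 0.13 (SE 0.42). For sEV-NORM against sEV-CTRL it was -0.46 (SE 0.38).

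Elovl3 (ENSMUSG00000038754, chromosome 19, 46131897 to 46135694, plus strand), a fatty acid elongase of brown fat and of sebaceous glands, was hardly detected. Its counts were 2, 0 and 0 with sEV-CTRL, 2, 2 and 0 with sEV-NORM, and 20 and 1 with sEV-HYP. A single library, replicate 1 of sEV-HYP, held most of the counts, and it was not the library with the high Ucp1. A list of 10 genes of epidermis and sebaceous gland was at 14.2 CPM in that library, within the 13 to 82.8 CPM of all libraries. Its highest value, in replicate 3 of sEV-NORM, included Krt10 at 37.8 CPM and Flg2 at 13.05 CPM, genes of epidermis. The sum therefore does not measure sebaceous content, and the source of the Elovl3 counts was not tested. The gene was too low to be tested by edgeR, and its counts other than the 20 were at or under the floor of 3.

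Adrb3 (ENSMUSG00000031489, chromosome 8, 27225776 to 27250616, minus strand), the receptor through which noradrenaline acts on mouse adipocytes, was abundant and did not separate the groups. Its level was 115, 143 and 146 CPM with sEV-CTRL, 143, 76.2 and 104 CPM with sEV-NORM, and 92.1 and 176 CPM with sEV-HYP. Replicate 2 of sEV-HYP had the highest value, while replicate 1 of sEV-HYP lay below all controls. The lowest value was in replicate 2 of sEV-NORM, the gland with the second highest Ucp1. No comparison passed. The log2 fold change was -0.01 (SE 0.32, edgeR) for sEV-HYP against sEV-CTRL, 0.31 (SE 0.31) against sEV-NORM and -0.32 (SE 0.28) for sEV-NORM against sEV-CTRL. Adrb3 is also a gene of white adipocytes, and the summed level of the white adipocyte list was 8738 to 13870 CPM with sEV-CTRL, 7349 to 11890 CPM with sEV-NORM and 8249 to 13180 CPM with sEV-HYP. Adrb3 shares 839 exonic bases with the antisense gene Gm45470 (44 to 84 counts), and the strand setting of the counting is not given in the sources used here, so their reads may not be told apart.

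Cox7a1, Cox8b and Cpt1b, the mitochondrial genes, are forms that brown fat shares with striated muscle. Cox7a1 (ENSMUSG00000074218, chromosome 7, 30184144 to 30186078, plus strand), a subunit of cytochrome c oxidase, was at 1.57, 9.62 and 3.83 CPM with sEV-CTRL, 5.63, 2.21 and 4.63 CPM with sEV-NORM, and 9.52 and 15.1 CPM with sEV-HYP. Both sEV-HYP libraries were above all sEV-NORM libraries, while replicate 2 of sEV-CTRL reached the level of the lower sEV-HYP gland. The log2 fold change was 1.56 (SE 0.64, edgeR) against sEV-NORM, past the unadjusted cutoff, with an adjusted P of 1.00 by edgeR and 0.0737 by DESeq2. Against sEV-CTRL it was 1.29 (SE 0.64), which did not pass. Without replicate 2 of sEV-CTRL, the control gland with the most muscle RNA, it was 2.19 (SE 0.55), which did. More of all genes tested passed in that setting than with all libraries. The call against sEV-NORM was lost with the replicate number as a block (1.37) and without sEV-CTRL replicate 3 (1.56), sEV-NORM replicate 2 (1.26), sEV-NORM replicate 3 (1.65) or sEV-HYP replicate 2 (1.19). Against sEV-CTRL the gene also passed by DESeq2 (1.29, adjusted P = 1.00) and with no filter on low counts (1.29). For sEV-NORM against sEV-CTRL it was -0.27 (SE 0.59).

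Cox8b (ENSMUSG00000025488, chromosome 7, 140898945 to 140900446, minus strand), another subunit of that enzyme, was at 12.5, 17.9 and 20.7 CPM with sEV-CTRL, 13.9, 14.8 and 15.6 CPM with sEV-NORM, and 16.9 and 27.0 CPM with sEV-HYP. The sEV-NORM libraries were close together and below both sEV-HYP libraries, the controls overlapped both, and no comparison passed by edgeR. Its log2 fold change was 0.58 (SE 0.26, edgeR) against sEV-NORM, 0.36 (SE 0.26) against sEV-CTRL and -0.21 (SE 0.24) for sEV-NORM against sEV-CTRL.

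Cpt1b (ENSMUSG00000078937, chromosome 15, 89416405 to 89425863, minus strand), the muscle and brown fat form of the enzyme that commits fatty acids to mitochondrial oxidation, was at 2.28, 7.38 and 3.83 CPM with sEV-CTRL, 6.47, 2.26 and 3.59 CPM with sEV-NORM, and 6.23 and 7.97 CPM with sEV-HYP. High values occurred in every group, the 3 groups overlapped, and no comparison passed. The log2 fold change was 0.78 (SE 0.53, edgeR) against sEV-NORM, 0.65 (SE 0.53) against sEV-CTRL and -0.13 (SE 0.48) for sEV-NORM against sEV-CTRL. Without replicate 2 of sEV-CTRL, the difference of sEV-HYP from sEV-CTRL was 1.22 and passed the unadjusted cutoff. In that setting more of all genes tested passed than with all libraries. Cpt1b shares 2744 exonic bases with the same-strand gene Gm44502, which is absent from the authors' counts, so the counts of Cpt1b are uncertain.

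Muscle RNA ran alongside Cox7a1 and Cpt1b. Over the 8 libraries, log2 CPM of Cpt1b correlated with the average of log2 CPM over the 20 skeletal muscle genes at r = 0.882 (exact permutation P = 0.000397, adjusted P = 0.00357 over 9 relations) and rho = 0.929 (exact permutation P = 0.00223, adjusted P = 0.01). For Cox7a1 the values were r = 0.816 (exact permutation P = 0.00722, adjusted P = 0.0325) and rho = 0.952 (exact permutation P = 0.00114, adjusted P = 0.01). Leaving out sEV-CTRL replicate 1 and sEV-NORM replicate 2, the libraries farthest from the median muscle level, gave r = 0.888 for Cpt1b and r = 0.843 for Cox7a1. Both relations therefore held without the extreme glands, and groups of 2 or 3 glands were too small to give them within a treatment. The permutations moved libraries freely across treatments. Their P values therefore cannot separate a relation between glands from a shared difference between treatments. The 2 relations were not particular to muscle. Cox7a1 also stood at r = -0.796 with the mean of the B cell and lymph node markers and at 0.743 with that of luminal epithelium. For Cpt1b these values were -0.72 and 0.762. The B cell mean itself stood at -0.775 with the muscle mean, and these further relations were not tested.

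For the other 7 genes tested the relation to muscle RNA did not pass. The next highest was Adrb3 at r = 0.687 (exact permutation P = 0.0518, adjusted P = 0.155), which fell to 0.23 without those 2 libraries, and Ucp1 and Dio2 stood at -0.29 and -0.13. Without the same 2 libraries they stood at 0.25 and 0.29, so the sign rests on those libraries. Replicate 2 of sEV-NORM is one of them, with the second highest Ucp1 and Dio2 of the 8 libraries and the least muscle RNA. Of the 20 muscle genes, 0 had an unadjusted P under 0.05 by edgeR in any comparison. Their median log2 fold change was nonetheless 2.36 for sEV-HYP against sEV-NORM, 1.02 against sEV-CTRL and -1.37 for sEV-NORM against sEV-CTRL. The muscle genes did not all move together. With sEV-HYP 4 of 20 were below 0 against sEV-NORM and 5 of 20 against sEV-CTRL. Among them were Myh7 (-2.92 and -3.67) and Tnnt1 (-2.28 and -3.18). With the muscle mean added to the model as a covariate, the difference of sEV-HYP from sEV-NORM was 0.76 for Cox7a1, in place of 1.56, and no longer passed the unadjusted cutoff. Under that model Ucp1 at 4.88, Dio2 at 2.25 and Cidea at 1.06 did pass it, 3 of 9 genes beside a background of 4.74%, and none passed after adjustment. Against sEV-CTRL the same model gave 1.10 (SE 0.38) for Cox7a1, 6.84 for Ucp1 and 2.92 for Dio2, all past the unadjusted cutoff beside a background of 3.29% and none after adjustment. For sEV-NORM against sEV-CTRL 0 of 9 passed, beside a background of 2.45%. The model with the covariate was not run with any library left out. In it, sEV-NORM replicate 2 had a muscle mean of -0.35 log2 CPM, against 3.60 to 8.28 in the other libraries. How far its values rest on that gland or on sEV-HYP replicate 2 was not tested.

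**Figure D3:**
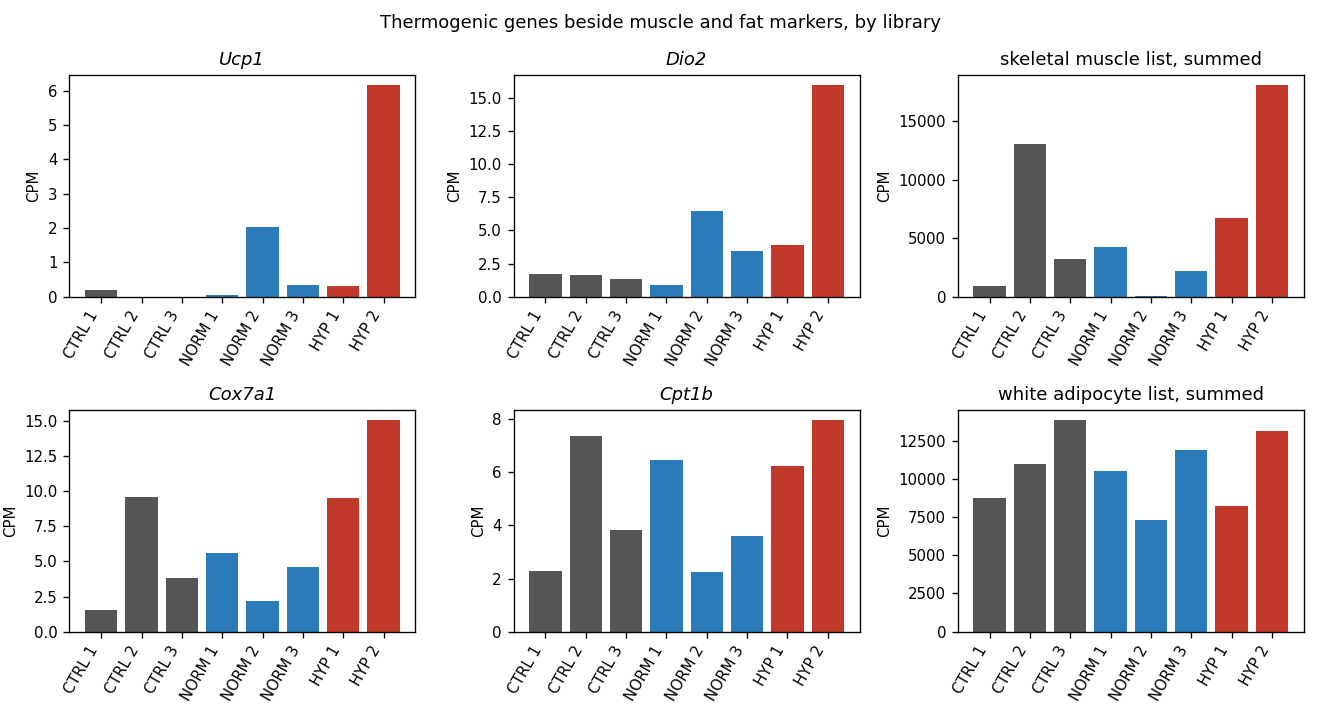
CPM (y axis, linear from 0) of Ucp1, Dio2, Cox7a1 and Cpt1b and the summed CPM of the skeletal muscle (20 genes) and white adipocyte (12 genes) lists, 1 bar per library. Cox7a1 and Cpt1b rise and fall with the muscle list, whereas the Ucp1 and Dio2 bars of sEV-NORM replicate 2 are high where its muscle bar is close to 0.

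The muscle and brown fat forms were minor beside the widely used forms of the same proteins. As a share of Cox7a2 per kb of exon, Cox7a1 was at 1.01%, 8.36% and 2.01% with sEV-CTRL, 4.04%, 1.70% and 3.54% with sEV-NORM, and 6.33% and 10.5% with sEV-HYP. Cox8b as a share of Cox8a was at 9.92%, 18.7% and 10.4% with sEV-CTRL, 10.5%, 15.9% and 13.6% with sEV-NORM, and 14.0% and 19.2% with sEV-HYP. The shares of Cox7a1 put the libraries in the same order as its CPM, and those of Cox8b overlapped in all groups. Cox6a2, the muscle and brown fat form of a further subunit and not among the 10 genes, ran from 0.383% of Cox6a1 in replicate 2 of sEV-NORM to 17.1% in replicate 2 of sEV-CTRL. Mean levels over all libraries were 398.6 CPM per kb of exon for Cox6a1, 355.2 for Cox8a, 270.2 for Cox7a2, 168.3 for Cox4i1, 94.4 for Cox7a2l and 23.1 for Cox6a2. Of these 6 partner genes, 0 had an unadjusted P under 0.05 by edgeR in any of the 3 comparisons.

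Cpt1a, the liver form that white adipocytes also use, was lower with sEV-HYP than in both other groups. It was at 59.6, 60.9 and 56.4 CPM with sEV-CTRL, 71.6, 73.4 and 64.4 CPM with sEV-NORM, and 46.3 and 42.7 CPM with sEV-HYP. The 3 groups did not overlap, and sEV-HYP was the lowest. The log2 fold change was -0.65 (SE 0.14, edgeR) against sEV-NORM and -0.41 (SE 0.14) against sEV-CTRL, both past the unadjusted cutoff and both at an adjusted P of 1.00. Without replicate 2 of sEV-HYP they were -0.59, which passed, and -0.35, which did not. Per length, Cpt1b was at 8.69%, 27.5% and 15.4% of Cpt1a with sEV-CTRL, 20.5%, 6.98% and 12.6% with sEV-NORM, and 30.5% and 42.3% with sEV-HYP, so both sEV-HYP glands were above the other 6.

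**Figure D4:**
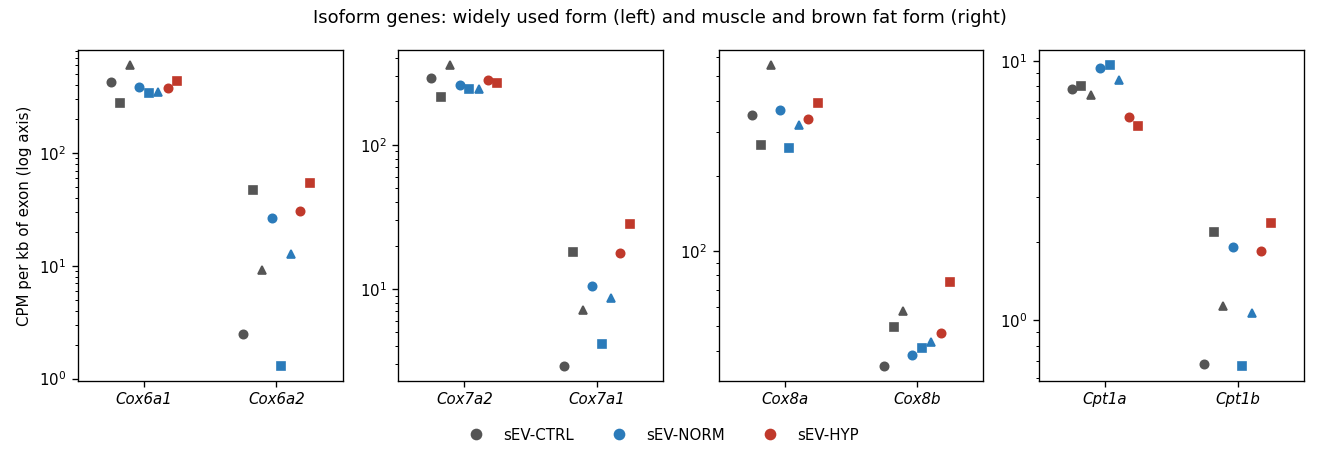
CPM per kb of exon (log y axis) of 4 pairs of isoform genes in each of the 8 libraries, the widely used form on the left of each panel and the muscle and brown fat form on the right, colored by group. The right-hand forms lie below their partners in every library, and Cpt1a is lowest in the 2 sEV-HYP libraries, at 46.3 and 42.7 CPM before division by length.

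Few genes of the wider pathway passed the unadjusted cutoff. Over all genes tested the share that passed was 2.45% for sEV-HYP against sEV-CTRL, 3.95% against sEV-NORM and 1.63% for sEV-NORM against sEV-CTRL. Of 10 genes of adrenergic signaling from the receptors to CREB, 0 had an unadjusted P under 0.05 by edgeR in any comparison, and the median log2 fold change of the list was 0.03 for sEV-HYP against sEV-CTRL, 0.00 against sEV-NORM and 0.04 for sEV-NORM against sEV-CTRL. Gnas, which encodes the stimulatory G protein below the receptor and is the most abundant gene of the list, was at 906 CPM with sEV-HYP and 904 CPM with sEV-CTRL (log2 fold change 0.00, SE 0.17).

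Among 16 thermogenic transcription factors and cofactors, 0 passed when sEV-HYP was set against sEV-CTRL, beside 2.45% of all genes tested. When it was set against sEV-NORM, 1 of 16 passed, beside 3.95%. The median log2 fold changes of the list were 0.03 and 0.24. The gene that passed was Nrip1, which encodes RIP140, a corepressor known to restrain Ucp1. Nrip1 was at 175, 142 and 201 CPM with sEV-NORM and 219 and 326 CPM with sEV-HYP, a log2 fold change of 0.66 (SE 0.25, adjusted P = 1.00, edgeR). The call was lost without sEV-HYP replicate 2 (0.34), sEV-NORM replicate 1 (0.66) or sEV-NORM replicate 2 (0.53) and with the muscle covariate (0.41). Its sEV-CTRL libraries, at 156, 235 and 178 CPM, overlapped the sEV-HYP libraries. Pparg, the master regulator of adipocytes and the most abundant of the list, had a log2 fold change of 0.38 (SE 0.28) against sEV-CTRL and -0.14 (SE 0.26) for sEV-NORM against sEV-CTRL, where 0 of the 16 passed.

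Of 23 further brown and beige adipocyte markers, 20 were tested. With sEV-HYP 1 of 20 was higher than with sEV-CTRL, past the unadjusted cutoff, beside the 2.45% of all genes, and 2 of 20 were higher than with sEV-NORM, beside the 3.95%. Acot11, a thioesterase induced in brown fat by cold, was at 1.68, 1.41 and 2.30 CPM with sEV-CTRL and 3.71 and 2.89 CPM with sEV-HYP, a log2 fold change of 0.88 (SE 0.37, adjusted P = 1.00, edgeR). P2rx5, a purinergic receptor of the brown adipocyte surface, was at 0.764, 0.664 and 0.662 CPM with sEV-NORM and 1.74 and 2.14 CPM with sEV-HYP, a log2 fold change of 1.47 (SE 0.43, adjusted P = 1.00). Both genes had no overlap between the groups named, a pattern held by 6.7% of genes tested when the other group was sEV-CTRL and by 12.3% when it was sEV-NORM. Without replicate 2 of sEV-HYP the values were 1.05 for Acot11 and 1.31 for P2rx5, and neither passed. Acot11 also did not pass without sEV-HYP replicate 1 (0.69), sEV-CTRL replicate 1 (0.83) or 2 (0.73) or sEV-NORM replicate 1 (0.88), nor by DESeq2 (0.87) or under the replicate block (0.89).

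Nrg4, a secreted factor of brown fat, was at 39.4, 61.9 and 65.5 CPM with sEV-NORM and 67.5 and 108 CPM with sEV-HYP, a log2 fold change of 0.66 (SE 0.28, adjusted P = 1.00, edgeR), which was 0.28 without replicate 2 of sEV-HYP and 0.46 without replicate 1 of sEV-NORM, neither past the cutoff. The median over the 20 genes was 0.25 against sEV-CTRL (1 passed), 0.41 against sEV-NORM (2 passed) and -0.13 for sEV-NORM against sEV-CTRL (0 passed). In that last comparison Pdk4, the most abundant of these markers, had a log2 fold change of -0.28 (SE 0.59). Zic1, Fgf21 and Bmp8b were too low to test.

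Heat can also come from creatine and calcium cycles that do not use Ucp1. Of 8 genes of creatine and calcium cycling, 0 passed in any comparison, and their most abundant gene, Atp2a2, the calcium pump of the endoplasmic reticulum, had log2 fold changes of 0.02 (SE 0.20) against sEV-CTRL and 0.08 (SE 0.20) against sEV-NORM. Of 16 genes of lipolysis and fatty acid oxidation, Cpt1a was the only one to pass, in both sEV-HYP comparisons, with list medians of 0.05 and 0.09. Lpl, the lipoprotein lipase and the most abundant of that list, had a log2 fold change of -0.20 (SE 0.29) for sEV-NORM against sEV-CTRL, where 0 of the 16 passed.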

How the data were processed

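RNA from 8 whole mammary glands, 1 animal each, was sequenced from poly(A) libraries made with Lexogen's SENSE kit. Per the submitters' processing notes and the study's methods, the authors mapped reads to GRCm38 (mm10) by STAR and quantified Ensembl 89 genes by RSEM 1.2.12. The table they deposited holds raw counts, all whole numbers, and the rounding of the RSEM estimates is not given in the sources used here. Groups follow the treatment labels, with sEV names as in the study. Symbols and positions came from GENCODE release M21, which named 51596 of 51789 genes. Genes with no symbol held 0.0389% of the counts.

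Counts were fitted in R 4.3.3 with edgeR 4.0.16 in one model of the 3 groups (filterByExpr with a minimum count of 10, TMM, quasi-likelihood F-test, two-sided, 5 residual degrees of freedom). P values were adjusted by the Benjamini-Hochberg method over the 17858 genes tested, and an unadjusted P of 0.05 is the cutoff meant where a gene is said to pass. A prior count of 2 was used for log2 CPM. The SE is the log2 fold change divided by the square root of F. DESeq2 1.42.0 on only the groups compared, which is closest to the study's methods, was an alternative, and adjusted P values that it gave as NA were left so. CPM per kb divides by the union of GENCODE exons. Correlations with muscle RNA used exact permutation tests over the 8 libraries, two-sided and without regard to treatment.

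The 10 genes, the 13 gene lists beside them and the rule for the genes named were chosen with earlier results of these data known. The rule named the 10 genes, up to 3 genes per list and comparison with an unadjusted P under 0.05, or the most abundant gene of the list where none passed, and the 5 genes outside the lists most like Ucp1. The procedure was tested on simulated data. No pair of libraries was a duplicate. Intervals for counts of 0 cover counting error only.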

Additional observations from a re-analysis of the deposited data

How the results depend on the processing

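The number of thermogenic genes with an unadjusted P under 0.05 was small and moved with the processing. The number over all genes moved too, as given below for some settings. In the main fit 2.45% of all genes tested passed for sEV-HYP against sEV-CTRL, 3.95% against sEV-NORM and 1.63% for sEV-NORM against sEV-CTRL. With DESeq2 these shares were 1.5%, 4.54% and 1.14%. With the muscle covariate they were 3.29%, 4.74% and 2.45%. For sEV-HYP against sEV-CTRL it was 2, and it became 4 with no filter on low counts and 1 with edgeR on only the groups compared, where Ucp1 did not pass the filter. Leaving out 1 library gave 0 (without sEV-HYP replicate 2) to 4 (without sEV-CTRL replicate 2). Against sEV-NORM it was 1, and it became 3 with no filter, 2 with edgeR or DESeq2 on only the groups compared and 3 with the skeletal muscle covariate, and 0 (without sEV-CTRL replicate 3 or sEV-HYP replicate 2) to 3 (without sEV-HYP replicate 1) with 1 library left out. For sEV-NORM against sEV-CTRL it was 0, became 2 with no filter or with DESeq2, and 0 to 2 with 1 library left out. Where 1 sEV-HYP library was left, it was assumed to vary like the other groups.

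Replicate numbers gave no sign of pairing. Correlations of the deviations from group means ran from -0.416 to 0.369 for same-numbered libraries and from -0.369 to 0.467 for libraries of different number. With 2 sEV-HYP libraries, their deviations mirror each other, so their correlations are not separate evidence. With the replicate block the counts of genes were 1, 1 and 1, Ucp1 stood at 4.14 against sEV-CTRL and no longer passed, and Prdm16 turned to 0.086. The cause was not tested.

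Cox7a1 and Cpt1b turned to 0.34 and 0.27 for sEV-NORM against sEV-CTRL with the muscle covariate. With 1 library left out, directions turned for Cidea (-0.14 to 0.58), Prdm16 (-0.24 to 0.031), Cox8b (-0.0098 to 0.66) and Adrb3 (-0.55 to 0.38) in sEV-HYP against sEV-CTRL, for Ucp1 (-1.31 to 4.12) and Adrb3 (-0.23 to 0.70) against sEV-NORM, and for Ppargc1a (-0.74 to 0.012), Cox7a1 (-0.71 to 0.63) and Cpt1b (-0.62 to 0.43) in sEV-NORM against sEV-CTRL. Cox7a1 against sEV-NORM lost its call under the block (1.37), the muscle covariate, and without sEV-CTRL replicate 3, sEV-NORM replicate 2 or 3, or sEV-HYP replicate 2 (down to 1.19). Dio2 against sEV-CTRL lost it only without sEV-HYP replicate 2, among the alternatives run.

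Over all genes, the number with an unadjusted P under 0.05 was 438 against sEV-CTRL (672 with no filter, 1475 without sEV-CTRL replicate 2), 706 against sEV-NORM (1102 with no filter, 1195 with DESeq2, 391 without sEV-HYP replicate 2) and 291 for sEV-NORM against sEV-CTRL (533 with no filter, 438 with the muscle covariate, 567 and 1021 without sEV-CTRL replicate 1 or 2). The calls of Cox7a1 and Cpt1b against sEV-CTRL without sEV-CTRL replicate 2 thus came where 1475 genes passed, in place of 438. With 2 sEV-HYP glands and Ucp1 at 0 to 7 counts in 6 of 8 libraries, depth and group size limit what can be said of Ucp1.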

Other observations

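Zic1 and Irf4, further genes of brown fat, each stood out in 1 gland, and were chosen after their values were seen. Zic1, a transcription factor of classical brown but not beige adipocytes, had 44 counts in replicate 2 of sEV-CTRL and at most 7 in any other library, and that gland had 0 counts of Ucp1. Irf4, which is induced by cold in brown adipocytes and is also abundant in lymphocytes, was at 280 CPM in replicate 2 of sEV-HYP and at 79.7 to 153 CPM in the other 7 libraries. The summed level of the 6 B cell and lymph node genes was lowest in that gland, at 947 CPM, against 1352 to 3294 CPM in the others. The difference in Irf4 between sEV-HYP and sEV-CTRL was 0.69 on the log2 scale (SE 0.44, edgeR) and did not pass an unadjusted P of 0.05, and the part of lymphocytes in it was not tested.

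Markers outside the thermogenic program that passed an unadjusted P under 0.05 by edgeR were few. Oxtr, the oxytocin receptor of basal epithelium, was higher with sEV-HYP than with sEV-CTRL (0.76, SE 0.28), and Dgat2, which makes triglyceride in white adipocytes, was raised in sEV-HYP glands relative to sEV-NORM glands (0.93, SE 0.37). Krtdap, a keratinocyte gene, had 202 counts in replicate 3 of sEV-NORM and at most 10 elsewhere. None had an adjusted P under 0.05. Over the other marker lists, the median log2 fold changes for sEV-HYP against sEV-CTRL, sEV-HYP against sEV-NORM and sEV-NORM against sEV-CTRL were -0.16, 0.03 and -0.18 for white adipocytes, 0.21, 0.01 and 0.28 for luminal epithelium, and 0.02, -0.07 and 0.14 for basal epithelium. They were 0.01, -0.24 and 0.38 for epidermis and sebaceous gland, -0.17, 0.03 and -0.22 for endothelium, and -0.38, -0.58 and 0.21 for B cells and lymph node.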
